A study of Mus musculus with 47 samples.

Results

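H3K27ac, the acetyl mark on lysine 27 of histone H3 found at active promoters and enhancers, was compared between male livers with and without Ezh1 and Ezh2. The members are the peaks on the 19 autosomes in the control male list, 28862 in number, and in the E1/E2-KO male list, 55055 in number. Together these 83917 peaks are part of 498557 regions in the 12 lists of the study, and they merge into 57279 distinct regions. The study profiled H3K27ac, H3K4me1 and H3K27me3 by ChIP-seq in livers of 7-week male and female mice, with 47 samples in all. Control mice carried floxed Ezh2 (Ezh2 f/f) without Cre. E1/E2-KO mice were Ezh1-/- in every cell and carried Ezh2 f/f with Alb-Cre, a Cre driven by the albumin promoter and so active in hepatocytes. Per the study, Ezh2 stays intact in non-parenchymal cells of the same organ, such as endothelial, stellate and immune cells. Its state in bile duct cells was not checked here. Chromatin came from whole frozen liver, so that fewer cells of a type and less mark per cell cannot be told apart. Each list was called once on reads pooled over the livers of a group, 4 for each list except E1/E2-KO female H3K4me1, where the labels give 3, and holds positions only. No list has a replicate, a peak height or a read depth, so no difference between the lists was tested here. The study itself tested H3K27ac reads of the single livers. It reported far fewer significantly changed sites than the peaks counted as gained and lost below. Those sites rest on read numbers and thresholds, whereas gained and lost peaks rest on presence in a list only. Intervals given here are 95% Wilson intervals, which cover counting error over peaks or genes and not the spread between mice.

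Ezh1 and Ezh2 are the alternative catalytic subunits of Polycomb repressive complex 2 (PRC2), which places methyl groups on lysine 27 of histone H3. Trimethylation (H3K27me3) spreads over broad domains and marks silent developmental genes in most adult tissues. Acetylation uses the same lysine, so one histone tail cannot carry both marks at that position. H3K4me1 marks enhancers whether or not they are active, and its overlap with H3K27ac is commonly read as a sign of an active enhancer. A peak was called kept if it shared at least 1 bp with a peak of the other male list, lost if it was in the control list only, and gained if it was in the E1/E2-KO list only.

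The sequences under a few of these peaks show the kinds of site that the lists contain. Each is a 300-base window at the middle of a peak, read 5′ to 3′ on the plus strand of NCBIM37 (mm9), outside annotated exons, with CpG dinucleotides in capitals. The first 3 lie in peaks that were absent from the control lists of both sexes and present in the E1/E2-KO lists of both sexes. They are a peak in Tcfap2a, which encodes an ectodermal transcription factor (chr13:40826707-40827006, 40 CpG), a peak at the promoter of Igf2bp3, a fetal RNA-binding protein (chr6:49165071-49165370, 26 CpG), and a peak in Zic4, a zinc finger gene of the developing brain (chr9:91276316-91276615, 30 CpG).
Tcfap2a: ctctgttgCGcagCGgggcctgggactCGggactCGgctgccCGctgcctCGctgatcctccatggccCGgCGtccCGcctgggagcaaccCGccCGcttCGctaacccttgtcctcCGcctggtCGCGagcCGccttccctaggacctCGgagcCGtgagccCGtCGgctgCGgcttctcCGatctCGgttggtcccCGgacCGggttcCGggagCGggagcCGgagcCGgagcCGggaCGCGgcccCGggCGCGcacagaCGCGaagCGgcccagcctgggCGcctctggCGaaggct
Igf2bp3: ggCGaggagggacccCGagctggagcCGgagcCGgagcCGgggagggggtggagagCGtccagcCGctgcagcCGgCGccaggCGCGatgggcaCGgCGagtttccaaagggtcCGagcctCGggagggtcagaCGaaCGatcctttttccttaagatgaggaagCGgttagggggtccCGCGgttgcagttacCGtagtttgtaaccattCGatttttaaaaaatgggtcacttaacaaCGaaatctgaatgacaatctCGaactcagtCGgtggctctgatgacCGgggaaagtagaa
Zic4: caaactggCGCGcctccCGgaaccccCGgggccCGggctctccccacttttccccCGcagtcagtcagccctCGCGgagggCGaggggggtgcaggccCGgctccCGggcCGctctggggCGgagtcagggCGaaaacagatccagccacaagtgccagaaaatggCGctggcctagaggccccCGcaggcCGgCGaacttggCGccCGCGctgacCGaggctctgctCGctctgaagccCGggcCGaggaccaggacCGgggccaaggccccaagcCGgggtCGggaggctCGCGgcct

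The next 3 were gained against the control male list. They are a promoter peak of Igf1r, the receptor for insulin-like growth factor 1 (chr7:75097026-75097325, 44 CpG), a peak 13526 bp from the nearest transcript start at Pax8, a thyroid and kidney transcription factor (chr2:24316713-24317012, 0 CpG), and a promoter peak of Cyp2b10, a female-biased cytochrome P450 of drug metabolism (chr7:26681981-26682280, 2 CpG).
Igf1r: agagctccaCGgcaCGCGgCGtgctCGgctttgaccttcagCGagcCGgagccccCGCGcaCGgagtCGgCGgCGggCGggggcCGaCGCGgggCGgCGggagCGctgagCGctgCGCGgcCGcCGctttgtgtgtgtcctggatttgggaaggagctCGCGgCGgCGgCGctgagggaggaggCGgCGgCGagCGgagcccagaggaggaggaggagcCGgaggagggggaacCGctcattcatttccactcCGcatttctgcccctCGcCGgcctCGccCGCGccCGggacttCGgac
Pax8: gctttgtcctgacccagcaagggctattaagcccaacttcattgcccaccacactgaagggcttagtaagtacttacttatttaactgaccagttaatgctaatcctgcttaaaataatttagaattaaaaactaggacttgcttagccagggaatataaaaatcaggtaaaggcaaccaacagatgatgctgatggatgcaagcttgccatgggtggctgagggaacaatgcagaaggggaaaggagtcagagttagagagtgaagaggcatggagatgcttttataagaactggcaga
Cyp2b10: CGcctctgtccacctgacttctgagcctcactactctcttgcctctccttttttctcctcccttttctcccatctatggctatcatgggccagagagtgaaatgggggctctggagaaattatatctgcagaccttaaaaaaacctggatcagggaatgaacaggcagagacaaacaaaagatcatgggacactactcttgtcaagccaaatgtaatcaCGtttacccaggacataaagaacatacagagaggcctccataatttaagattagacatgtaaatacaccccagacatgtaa

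For contrast, a wide lost peak near Cyp2c67, a cytochrome P450 gene (chr19:39750769-39751068, 2 CpG), and a kept peak at the promoter of Alb, the albumin gene that also drives the Cre (chr5:90889148-90889447, 3 CpG), both came from CpG-poor DNA. The 4 windows rich in CpG all lie within 1 kb of a transcript start, but Cyp2b10 and Alb show that promoter peaks of liver genes can be CpG-poor.
Cyp2c67: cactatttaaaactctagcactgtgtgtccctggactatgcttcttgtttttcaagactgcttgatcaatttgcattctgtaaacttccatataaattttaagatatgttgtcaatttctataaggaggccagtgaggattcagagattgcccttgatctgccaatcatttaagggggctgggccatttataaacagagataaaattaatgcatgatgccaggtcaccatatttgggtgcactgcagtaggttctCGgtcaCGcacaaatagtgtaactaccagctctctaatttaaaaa
Alb: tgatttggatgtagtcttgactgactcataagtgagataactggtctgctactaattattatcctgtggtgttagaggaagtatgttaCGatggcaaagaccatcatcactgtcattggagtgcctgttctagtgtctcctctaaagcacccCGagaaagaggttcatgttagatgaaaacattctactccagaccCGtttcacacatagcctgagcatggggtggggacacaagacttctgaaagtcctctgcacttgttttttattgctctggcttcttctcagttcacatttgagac

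The control male list was short. It covered 16.97 Mb of the autosomes, against 31.5 Mb in E1/E2-KO male liver, and its 28862 peaks compare with 48858 for control females and 50426 for females lacking Ezh1 and Ezh2. The shortage touched H3K27ac only among the male lists, since control and E1/E2-KO male liver had 68838 and 67161 H3K4me1 peaks and 16806 and 15565 H3K27me3 regions. The narrowest peak of the control male list was 221 bp wide and that of the E1/E2-KO male list 188 bp, while the median widths were 479 and 445 bp. Sequencing depth and enrichment of the pooled libraries are not in the lists, and their part in the number of peaks was not tested.

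Most control peaks were kept and most E1/E2-KO peaks had no control counterpart. Of the control male peaks, 26068 (90.3%, interval 90.0 to 90.7%) were kept and 2794 (9.68%, 9.34 to 10.0%) were lost. Of the E1/E2-KO male peaks, 25014 (45.4%) were kept and 30041 (54.6%, 54.1 to 55.0%) were gained. The gained share was similar on every autosome, from 51.4% on chromosome 7 to 57.7% on chromosome 18.

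Both kinds of unshared peak were narrow. The median width was 320 bp for gained and 288 bp for lost peaks, against 715 and 514 bp for the peaks kept in the E1/E2-KO and control lists. Only 491 gained peaks (1.63%) and 2 lost peaks reached 1 kb. Among control peaks the lost share was 26.9% below 300 bp, 11.5% from 300 to under 500 bp and 2.1% from 500 to under 750 bp, and none of the 730 peaks of 1500 bp or more was lost. Among E1/E2-KO peaks the gained share ran from 89.2% below 300 bp to 2.03% at 1500 bp or more. Peaks present in both lists were also broader in E1/E2-KO liver: of 25504 control peaks that met exactly 1 E1/E2-KO peak, 78.5% met a wider one, with a median ratio of widths of 1.26 (quartiles 1.03 and 1.81).

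**Figure D1:**
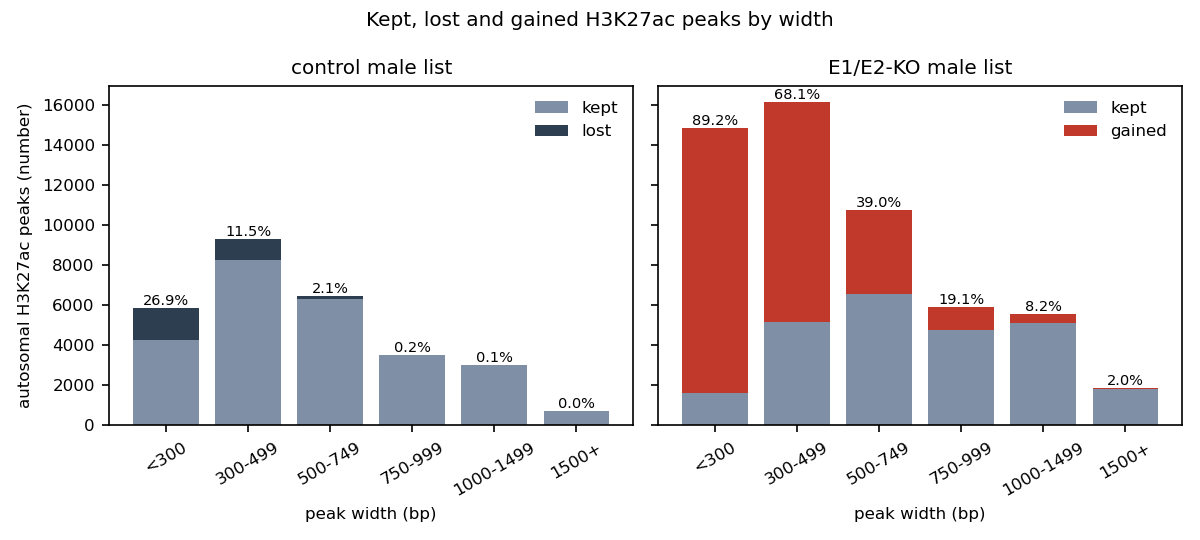
Number of autosomal H3K27ac peaks by width class in bp in the control male list (left) and the E1/E2-KO male list (right), stacked as kept and lost or kept and gained, with the percent lost or gained above each bar. Below 300 bp, 26.9% of control peaks were lost and 89.2% of E1/E2-KO peaks gained, and at 1500 bp or more 0% and 2.03%.

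The female lists, which are also longer, were compared with the control male list in the same way. Here 24861 of the control female peaks (50.9%, 50.4 to 51.3%) and 25884 of the E1/E2-KO female peaks (51.3%) had no control male counterpart. They resembled the gained peaks, with 13.1 and 13.5% at promoters against 11.9%, and 50.9 and 52.4% within H3K4me1 of control male liver against 53.8%. When each list was limited to its 28862 widest peaks, 8521 E1/E2-KO male peaks (29.5%) and 8150 control female peaks (28.2%) were absent from the control male list. The lost share was then 24.6% (7088 of the control male peaks), close to the gained share. By number alone, then, livers of control females departed from the control male list nearly as far as E1/E2-KO males did.

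The gained peaks were therefore divided by the female lists. A control female peak lay over 14810 of them (49.3%). Another 4480 (14.9%) were absent from both control lists and present in both E1/E2-KO lists, and are called gained in both sexes below. The remaining 10751 (35.8%) were in no female list. The median widths of these sets were 378, 326 and 267 bp, so the peaks seen only in E1/E2-KO males were the narrowest. Of the lost peaks, 577 (20.7%) were lost in both sexes, being present in control and absent from E1/E2-KO females, and 1548 (55.4%) were in neither female list. Of the kept control peaks, 89.9% were in both female lists.

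Kept peaks lay at promoters more often than unshared peaks, most of which were farther than 10 kb from a start. Within 1 kb of the start of a protein-coding transcript lay 45.8% of kept, 11.9% of gained (3575) and 9.48% of lost (265) peaks. Farther than 10 kb lay 39.4, 65.8 and 67.4%, and the median distance to the nearest start was 2899, 19024 and 19677 bp. Exons held 14.7% of kept peaks, 6.52% of gained and 4.33% of lost ones, and introns held 49.7, 51.2 and 53.6%. Promoters made up 15.8% of the gained peaks found in control females, 11.4% (512) of those gained in both sexes and 6.72% of those in no female list.

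At 1 bp overlap, gained and lost peaks met H3K4me1 less often than kept peaks. H3K4me1 of control male liver overlapped 66.4% of kept, 53.8% of gained and 44.0% of lost peaks, and H3K4me1 of E1/E2-KO male liver overlapped 57.6, 51.8 and 36.9%. Both H3K4me1 lists covered 52.4% of kept, 41.6% of gained and 29.4% of lost peaks. Of the gained peaks, 12.2% met H3K4me1 in control only and 10.3% in E1/E2-KO only. Thus most gained sites with H3K4me1 already had a called H3K4me1 peak in control liver. The order of gained and kept peaks turned with the width and overlap required, while lost peaks stayed lowest. Among peaks of at least 500 bp the shares for control H3K4me1 were 71.2% of gained, 67.1% of kept and 63.9% of lost peaks, and for E1/E2-KO H3K4me1 69.5, 57.4 and 49.3%. With at least 50% of the peak covered, control H3K4me1 held 43.9% of gained, 42.8% of kept and 35.8% of lost peaks. Of peaks gained in both sexes, 13.2% met H3K4me1 in E1/E2-KO only and 10.8% in control only.

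H3K27me3, the mark that PRC2 makes, was still called over 30.3% of the autosomes in E1/E2-KO male liver and over 31.0% in control. A called region gives a position and not the level of the mark, here and for the single genes below. Per the study, the mark decreased at most H3K27me3 sites that changed, and its sequencing may understate the loss at some sites. H3K27me3 regions of control liver held 15.6% of kept, 17.1% of lost and 30.3% of gained peaks. The share was 41.7% (1869 of 4480) for peaks gained in both sexes, with 31.0% in H3K27me3 of both genotypes and 10.7% in that of control only. At promoters the contrast was wider. Control H3K27me3 held 50.8% (49.2 to 52.4%) of gained promoter peaks, 17.2% (16.5 to 17.9%) of kept ones and 70.3% (360 of 512) of those gained in both sexes. Gained promoter peaks that control females also had lay in it at 44.2% (1035 of 2340), so much of the contrast with kept peaks was also seen at peaks of control females. Kept peaks were more often in H3K27me3 of E1/E2-KO only (18.6%) than in that of control only (4.24%). The same exercise with control females gave 27% of their peaks absent from control males within control male H3K27me3, so the 30.3% of the gained peaks stood little above it.

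**Figure D2:**
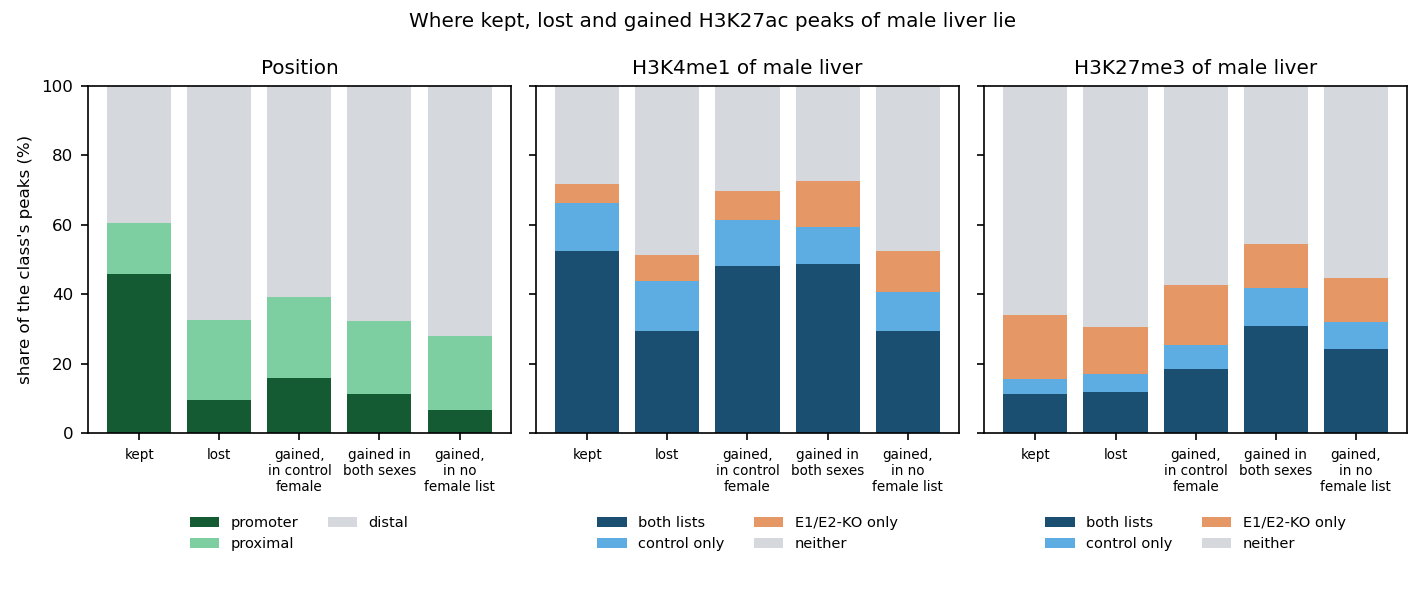
Percent of the peaks of each class, with gained peaks split by the female lists, by distance to the nearest transcript start (left; promoter within 1 kb, distal beyond 10 kb) and by overlap with H3K4me1 (middle) and H3K27me3 (right) of the male lists. Promoters hold 45.8% of kept peaks and 11.4% of peaks gained in both sexes, and H3K27me3 of control liver, alone or with that of E1/E2-KO, holds 15.6 and 41.7%.

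New promoter peaks were more frequent at genes whose start lay in H3K27me3. Of all 21281 autosomal protein-coding genes, 1564 (background 7.35%) had a peak within 1 kb of the gene's 5′ end in E1/E2-KO but not control males, and 67 the reverse. Among genes without a control promoter peak, a new one was seen at 130 of 645 genes (20.2%, 17.2 to 23.4%) whose start was in H3K27me3 of control liver only. It was seen at 1005 of 5338 (18.8%, 17.8 to 19.9%) in H3K27me3 of both genotypes, at 109 of 620 (17.6%, 14.8 to 20.8%) in that of E1/E2-KO only, and at 320 of 4951 (6.46%, 5.81 to 7.18%) in neither. Counting all new peaks, genes that left H3K27me3 thus gained a promoter peak about as often as genes that stayed in it. Of the 1564 genes, 538 also lacked a promoter peak in control females. These were 27 of the 645 genes in H3K27me3 of control only and 413 of the 5338 in that of both genotypes. They were 26 of the 620 in that of E1/E2-KO only and 72 of the 4951 in neither. In this stricter count the share was lower for genes that left H3K27me3 than for genes that stayed in it.

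Gained peaks were grouped along the genome about as much as the control male list, which is similar in number. Stitched over gaps of up to just over 12 kb, the gained peaks formed 17694 clusters, of which 10879 held a single peak and 663 held at least 5, with 13.6% of the gained peaks. The control male list formed 628 clusters of at least 5, with 13.2% of its peaks. The 2794 lost peaks, far fewer in number, formed 2636 clusters, of which 2491 held a single peak and none more than 4. The distance from a gained peak to the nearest control peak had a median of 10437 bp, and 21.2% lay within 1 kb of a control peak. Lost peaks were closer to the E1/E2-KO list, with a median of 2159 bp and 42.7% within 1 kb.

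The 5 largest gained clusters held from 15 to 19 gained peaks each. The first, chr14:26301140-26361214 in Zmiz1, which encodes a transcriptional coactivator, held 19 gained peaks beside 3 control peaks, in no H3K27me3 of either genotype. At Dgat2 and Mogat2, which encode acyltransferases of triglyceride synthesis, 17 gained peaks stood beside 8 control peaks, and H3K27me3 covered 97.3% of the cluster in E1/E2-KO and 0% in control liver. At Slc38a4, an amino acid transporter of hepatocytes, 16 gained peaks stood beside 2 control peaks, with H3K27me3 over 16.2% in control and 65.9% in E1/E2-KO. At Zbtb16, a zinc finger repressor, 16 gained peaks stood beside 1 control peak. At Nfib, a nuclear factor I gene, 15 stood beside 6. All 5 genes had many peaks in control females too, with 31 at Zmiz1, 9 at Dgat2, 14 at Slc38a4, 25 at Zbtb16 and 33 at Nfib within 10 kb of the gene. Among peaks gained in both sexes only 2 clusters held 5 peaks, one at Msi2, an RNA-binding protein of stem cells, and one at Tcfap2a.

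Within 10 kb of their span, 48.7% of genes had a gained peak and 9.83% a lost one. A control female peak absent from control males was found at 44.8%, a gained peak also absent from control females at 32.9% and a peak gained in both sexes at 13.8%. Among the widest 28862 peaks of each list, 23.6% of genes had a gained peak and, likewise, 23.6% had a control female peak absent from control males. The gene lists below are read against these shares. All genes include 6271 (29.5%) with no peak in either male list. Lists of genes expressed in liver are thus set against an unlike background, and gene length was not adjusted for. Summed over all genes there were 33640 peaks in control and 57097 in E1/E2-KO males, and 7674 and 8672 genes had their start in H3K27me3. Neighbouring genes can share a peak, so genes of one list are not independent.

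Developmental transcription factors, which specify cell types in the embryo and are classical PRC2 targets, had few H3K27ac peaks in control liver. All 65 listed genes had their start in H3K27me3 in both genotypes, and 54 had no control male peak. A gained peak was found at 35 of them (53.8%, interval 41.9 to 65.4%) and a lost peak at 1. Summed over the genes there were 16 peaks in control and 105 in E1/E2-KO males. Peaks gained in both sexes were found at 22 (33.8%, 23.5 to 46.0%, against 13.8% of all genes), and control female peaks absent from control males at 14 (21.5%, against 44.8%). Among equal numbers of the widest peaks the list had a gained peak at 27 genes (41.5%, 30.4 to 53.7%) and a control female peak absent from control males at 4 (6.15%, 2.42 to 14.8%), where all genes gave 23.6% for each. Promoter peaks numbered 2 genes in control and 23 in E1/E2-KO males.

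Some genes of the list, given as examples and partly named after their values were seen, had peaks in both E1/E2-KO lists and in neither control list. Pax6, a regulator of eye and brain development, had 0 peaks in control males, 4 in E1/E2-KO males, 0 in control females and 4 in E1/E2-KO females. Zic1 and Zic4, neighbours that share peaks, each had 0, 4, 0 and 3. Msx1, a homeobox gene of limb and tooth, had 0, 3, 0 and 2, with a promoter peak in both E1/E2-KO lists and in neither control list. Gata3, a regulator of T cells and kidney, had 0, 2, 0 and 3, also with a promoter peak in the E1/E2-KO lists only. Foxc1, a forkhead gene of mesoderm, had 0, 4, 0 and 2. Other genes of the list, with larger changes in peak number between the male lists, showed a less clear split by genotype, as control females also had peaks. Pax8 had 0, 8, 2 and 3, Lhx2 had 0, 6, 2 and 3, and Meis2 had 2, 7, 7 and 5, so that control females had as many peaks at Meis2 as E1/E2-KO males.

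Hox genes, which pattern the body axis, lie in 4 clusters that were covered by H3K27me3 over 100% of their length in both genotypes. Of 39 genes, 33 (84.6%) had a gained peak, 24 (61.5%, 45.9 to 75.1%) a peak gained in both sexes and 4 a lost peak. The genes lie close together and share peaks, so the interval, which treats them as independent, is too narrow. Distinct peaks gained in both sexes numbered 3 at Hoxa, 1 at Hoxb, 3 at Hoxc and 3 at Hoxd. With equal numbers of the widest peaks, 24 genes (61.5%) had a gained peak and 8 (20.5%) a control female peak absent from control males. The Hoxa cluster (chr6:52095366-52220874) had 2 peaks in control males, 14 in E1/E2-KO males, 5 in control females and 11 in E1/E2-KO females. The Hoxb cluster had 2, 8, 8 and 10, the Hoxc cluster 0, 7, 1 and 5, and the Hoxd cluster 0, 5, 0 and 5. E1/E2-KO livers thus had more peaks than control livers of the same sex in each of the 4 clusters, although at Hoxb control females matched E1/E2-KO males. H3K4me1 peaks were already present in control males at all 4, with 12 at Hoxa, 3 at Hoxb, 10 at Hoxc and 11 at Hoxd, and with 12, 17, 15 and 13 in E1/E2-KO males. Within 10 kb of single genes, where neighbours can share peaks, Hoxa13 had 0 peaks in control and 4 in E1/E2-KO males. Hoxa9 had 0 and 4, Hoxc6 0 and 4, and Hoxc10 0 and 3, whereas Hoxc13 and Hoxd1 had none in either.

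**Figure D3:**
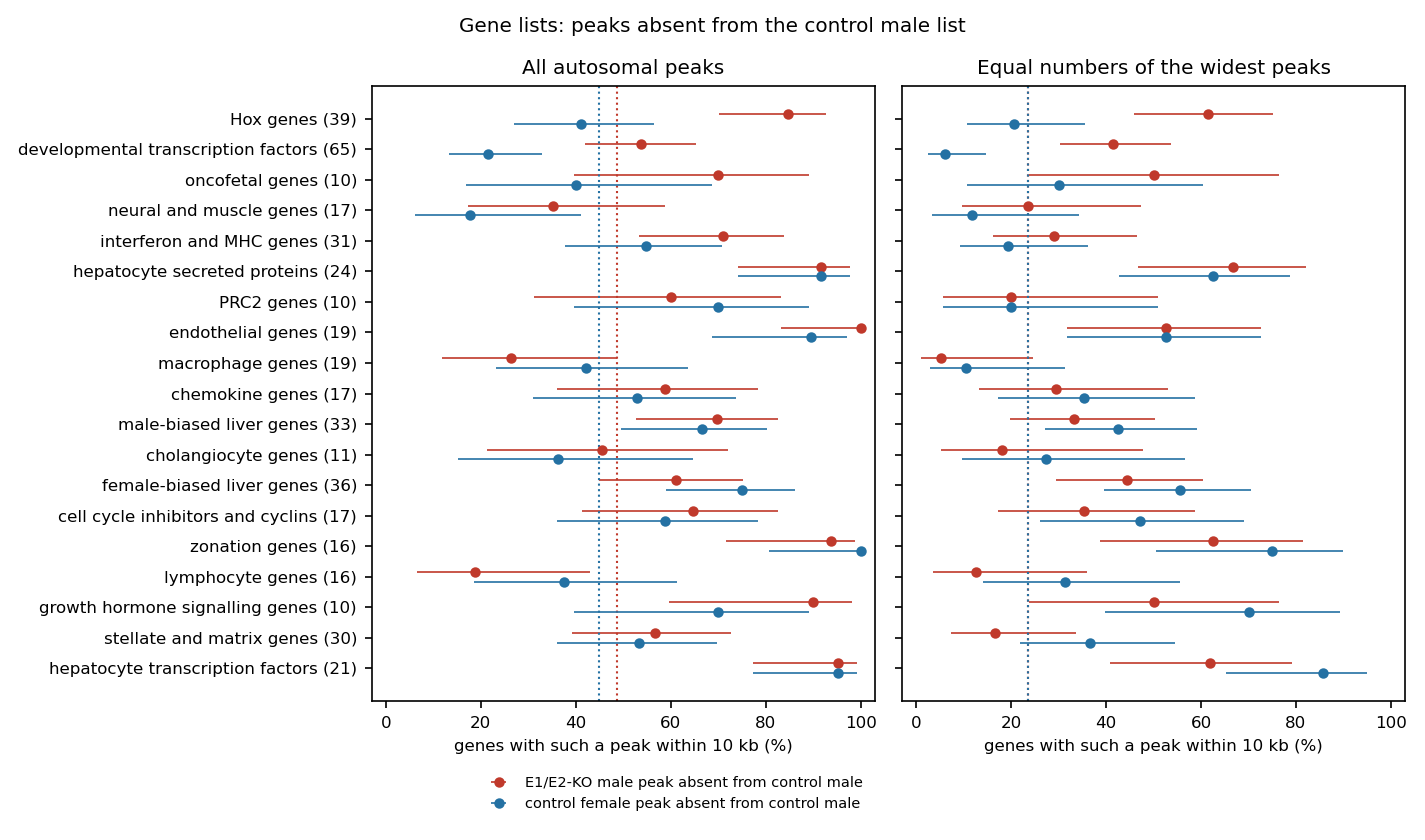
Percent of the genes of each list (number of genes in brackets) with an H3K27ac peak absent from control males within 10 kb, for E1/E2-KO males (red) and control females (blue), with 95% Wilson intervals, for all peaks (left) and equal numbers of the widest peaks (right). Dotted lines give all genes, 48.7 and 44.8% on the left and 23.6% for both on the right, where developmental transcription factors (41.5 against 6.15%) and Hox genes (61.5 against 20.5%) have the higher share in E1/E2-KO.

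Oncofetal genes, which are active in fetal liver and in liver tumours, included the locus with the most peaks gained in both sexes on this list. At Igf2bp3, control males had 1 peak, E1/E2-KO males 12, control females 6 and E1/E2-KO females 13, and 5 of the 11 gained peaks were gained in both sexes. Promoter peaks were in the E1/E2-KO lists only. H3K27me3 covered 68.5% of the locus in control and 19.6% in E1/E2-KO males, while H3K4me1 peaks numbered 16 and 17. Its relatives Igf2bp2 and Igf2bp1 had 0 peaks in control males and 5 and 2 in E1/E2-KO males. Afp, the fetal counterpart of albumin, had 3 and 6, with 5 in control females. Igf2 had none in any list. In all, 7 of 10 oncofetal genes had a gained peak, and a promoter peak was found at 0 in control and 4 in E1/E2-KO males.

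Tcfap2a and Lep were named after their values were seen, as sites of peaks gained in both sexes. That class is defined by absence from both control lists and presence in both E1/E2-KO lists, so their split by genotype largely follows from the choice. Tcfap2a had 0 peaks in control males, 6 in E1/E2-KO males, 0 in control females and 6 in E1/E2-KO females, in a region covered by H3K27me3 in both genotypes. At Lep, the leptin gene of adipose tissue, a single gained peak of 1357 bp was present in both E1/E2-KO lists and in neither control list.

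**Figure D4:**
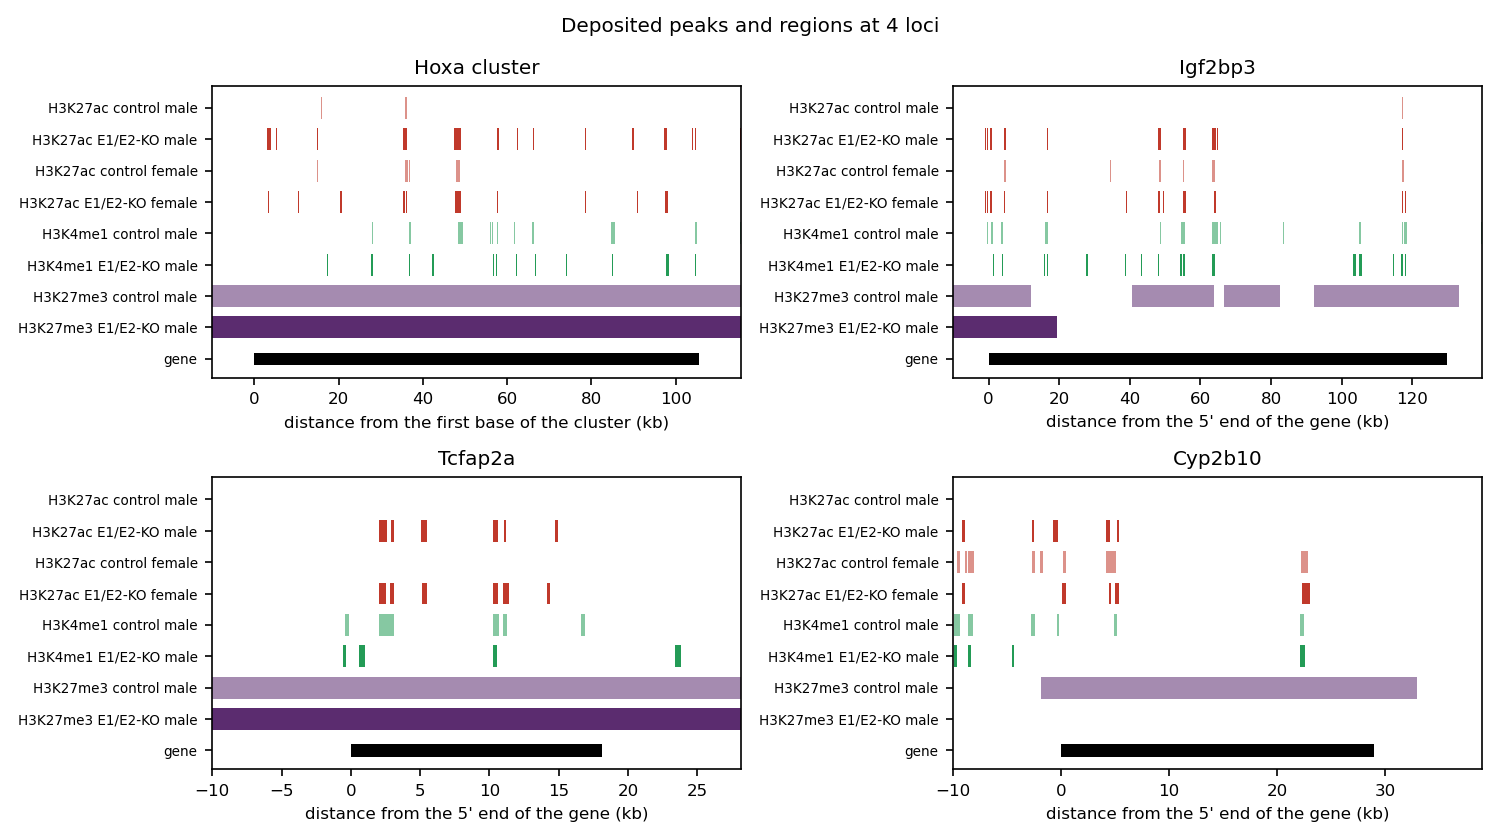
Peaks and regions of 8 lists at 4 loci, against the distance in kb from the 5′ end of the gene or the first base of the Hoxa cluster, with a black bar for the gene or cluster. Tcfap2a, named after its values were seen, has 0 control and 6 E1/E2-KO H3K27ac peaks in each sex. Cyp2b10 has 0 in control males, 5 in E1/E2-KO males and 8 in control females.

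Hepatocyte genes had gained peaks at a higher share than all genes, beside peaks that they already had in control males. Hepatocyte transcription factors had a gained peak at 20 of 21 genes and a lost one at 5, and their median went from 3 to 5 peaks per gene. Control female peaks absent from control males were also found at 20 of 21, and with equal numbers of the widest peaks the counts were 13 for gained and 18 for control female. A gained peak also absent from control females was found at 13 (61.9%, against 32.9% of all genes) and a peak gained in both sexes at 8 (38.1%, 20.8 to 59.1%, against 13.8%). Ppara, the receptor that controls fatty acid oxidation, had 3 peaks in control males, 18 in E1/E2-KO males, 11 in control females and 13 in E1/E2-KO females, and H3K27me3 covered 0% of the locus in control and 68.6% in E1/E2-KO males. Nr5a2, a regulator of bile acid synthesis, had 10, 19, 20 and 18, and Prox1, a hepatoblast factor, 3, 11, 9 and 9. Hnf4a, the central regulator of hepatocyte identity, had 7, 13, 11 and 9. The number of these genes with their start in H3K27me3 was 4 for control males and 18 for E1/E2-KO males, where all genes gave 7674 and 8672 of 21281.

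Genes of secreted hepatocyte proteins also had a gained peak at nearly every member, 22 of 24. With equal numbers of the widest peaks, 16 had a gained peak and 15 a control female peak absent from control males. A gained peak also absent from control females was found at 13 (54.2%), a peak gained in both sexes at 3, near the 13.8% of all genes, and a promoter peak at 19 in control and 22 in E1/E2-KO males. The median was 2 peaks per gene in control and 6 in E1/E2-KO males. Apoa1, the main protein of high density lipoprotein, had 2 peaks in control males, 9 in E1/E2-KO males and 7 in control females, and Plg, which encodes plasminogen, had 2, 8 and 6. Alb had 2 and 5 in control and E1/E2-KO males. These genes mark the tissue as liver in both lists, since all 24 had at least 1 peak in each.

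Zonation genes, which hepatocytes express near the portal or the central vein, had a gained peak at 15 of 16 genes. All 16 also had a control female peak absent from control males, and with equal numbers of the widest peaks the counts were 10 for gained and 12 for control female. A gained peak also absent from control females was found at 10 (62.5%, against 32.9% of all genes). A peak gained in both sexes was found at 6 (37.5%, against 13.8%). Cyp2e1, a pericentral cytochrome P450, had 2 peaks in control males, 6 in E1/E2-KO males and 6 in control females, and H3K27me3 covered 100% of the gene in control and 0% in E1/E2-KO males. Growth hormone signalling genes, which carry the pituitary signal that sets sex differences in liver, had a gained peak at 9 of 10 and a peak gained in both sexes at 3. Ghr, the growth hormone receptor, had 4 peaks in control males, 15 in E1/E2-KO males, 21 in control females and 13 in E1/E2-KO females. Igf1 had 7, 14, 15 and 16. Stat5b, the transcription factor downstream of the receptor, had 10 in both male lists.

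Female- and male-biased genes had similar shares of genes with a gained peak. In the general list, a gained peak was found at 22 of 36 female-biased genes (61.1%) and at 23 of 33 male-biased genes (69.7%). A control female peak absent from control males was found at 27 and 22 of them. With equal numbers of the widest peaks, 16 and 11 had a gained peak and 20 and 14 such a control female peak. A lost peak was found at 3 and 9 genes of these 2 lists, and a peak gained in both sexes at 12 and 4. Among the sex-biased genes of the study, which were chosen on RNA from livers of these groups, 583 of 644 female-biased and 445 of 487 male-biased genes matched the annotation. A gained peak was found at 452 (77.5%) and 345 (77.5%) of these, against 48.7% of all genes. The study's lists hold liver-expressed genes only, which all genes are not, and this was not adjusted for. A peak gained in both sexes was found at 23.2% and 23.1%, against 13.8%. Control female peaks absent from control males were found at 76.3% and 71.9%. With equal numbers of the widest peaks, 43.6% and 43.1% had a gained peak and 48.5% and 46.3% such a control female peak. A new promoter peak was found at 117 female-biased (20.1%) and 39 male-biased genes (8.76%), against 7.35% of all genes, and a promoter peak in control females but not control males at 126 and 36. A promoter peak was already present in control males at 333 of the 445 male-biased and 319 of the 583 female-biased genes. Among the genes without one, the share with a new peak was still higher for female-biased genes, by a smaller margin. Both shares were above the 13.5% of all such genes (1564 of 11554). The source of the difference was not tested. In the general list a new promoter peak was found at 8 and 5 genes. Matched members of the responding subsets numbered 219 of 244 and 76 of 90. Of the 219 female-biased genes that the study lists as up in E1/E2-KO males, 15 (6.85%) had a lost peak, and of the 76 male-biased genes that it lists as down, 21 (27.6%) did, against 9.83% of all genes. The shares among the sex-biased genes without that response were 19.5% (71 of 364 female-biased genes not up) and 23% (85 of 369 male-biased genes not down). A gained peak was found at 70.8% of the female-biased genes that were up and 81.6% of those that were not. These subsets were chosen on the response to E1/E2-KO and are no independent evidence of its direction.

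Among single female-biased genes, Cyp2b10 had 0 peaks in control males, 5 in E1/E2-KO males, 8 in control females and 5 in E1/E2-KO females, and H3K27me3 covered 71.0% of the locus in control and 0% in E1/E2-KO males. Ntrk2, a neurotrophin receptor, had 4, 20, 11 and 19, with 7 peaks gained in both sexes. Tox, a nuclear factor best known in T cells, had 7, 22, 18 and 28, and Prlr, the prolactin receptor, 13, 24, 24 and 19. Defb1, a defensin, had 0, 6, 2 and 2. Of male-biased genes, C8a, a complement component, had 4, 11, 10 and 10, and Egfr, the epidermal growth factor receptor, 4, 8, 15 and 10. For Cyp2b10, Prlr, C8a and Egfr the control females thus had at least nearly as many peaks as the E1/E2-KO males.

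Genes of the other liver cells were counted because these cells contribute to the same chromatin. All of them lack Ezh1, and non-parenchymal cells keep Ezh2 per the study. Endothelial genes had a gained peak at 19 of 19 and a peak gained in both sexes at 12 (63.2%), and their sum went from 22 peaks in control to 75 in E1/E2-KO males. A control female peak absent from control males was found at 17, and with equal numbers of the widest peaks both counts were 10. Pecam1, an adhesion molecule of endothelium, had 4 peaks in control males, 11 in E1/E2-KO males, 7 in control females and 12 in E1/E2-KO females. Stab2, a scavenger receptor of sinusoidal cells, had 3, 11, 12 and 10, Vwf 0, 4, 2 and 3, and Cdh5, the endothelial cadherin, 0, 3, 0 and 2. The starts of 15 endothelial genes lay in H3K27me3 in control and of 10 in E1/E2-KO males. Whether endothelial cells take part in the difference was not tested.

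Stellate and matrix genes had a gained peak at 17 of 30, with 20 peaks in control and 47 in E1/E2-KO males. With equal numbers of the widest peaks the order turned, with a gained peak at 5 (16.7%, below the 23.6% of all genes) and a control female peak absent from control males at 11 (36.7%). A peak gained in both sexes was also found at 5, near the 13.8% of all genes. Col1a1, the main fibrillar collagen, had 0 peaks in control males and 1 in E1/E2-KO males, and Pdgfra, a receptor of mesenchymal cells, 0 and 3. Macrophage genes had a gained peak at 5 of 19, below the 48.7% of all genes, and the Kupffer cell genes Timd4, Cd5l and Marco had none in either male list. Lymphocyte genes had a gained peak at 3 of 16, with none at Cd3e or Cd8a. Cholangiocyte genes had one at 5 of 11, where Krt7, Krt19 and Epcam had no peak. Neural and muscle genes, as lists of tissues that liver does not contain, had one at 6 of 17, which included Myog. Summed over each list, control and E1/E2-KO males had 8 and 14 peaks at macrophage, 13 and 18 at lymphocyte, 8 and 23 at cholangiocyte and 5 and 13 at neural and muscle genes. The ratio was near that of all genes for macrophage genes, below it for lymphocyte genes and above it for cholangiocyte, neural and muscle, and stellate and matrix genes. The part of changed cell numbers in these counts was not tested.

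Interferon and MHC genes had a gained peak at 22 of 31 and chemokine genes at 10 of 17, with 63 and 91 peaks in control and E1/E2-KO males at the former and 17 and 33 at the latter. The ratio of the sums was below that of all genes for interferon and MHC genes and above it for chemokine genes. A peak gained in both sexes was found at 5 and 4. Usp18, an interferon-induced protease, had 2 peaks in control and 6 in E1/E2-KO males, and Cxcl9, a chemokine that attracts T cells, 1 and 5, with 4 in control females. Cell cycle genes had a gained peak at 11 of 17. Cdkn2a, a cell cycle inhibitor and a known PRC2 target in other tissues, had 0 and 1, with the promoter peak also called in control females. Top2a, a topoisomerase of dividing cells, had 1 and 0 in males and 2 and 0 in females. Among genes of PRC2 itself, 6 of 10 had a gained peak, near the 48.7% of all genes, and none had one gained in both sexes. A control female peak absent from control males was found at 7, and with equal numbers of the widest peaks both counts were 2. Ezh1 had 1 and 3 peaks, Ezh2 3 and 2, Eed 1 and 1, and Suz12 1 and 2. Peaks at Ezh1 and Ezh2 do not check the deletion, which removes exons and not necessarily the promoter.

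Of all genes, 1905 (8.95%) had no peak in control and at least 1 in E1/E2-KO males within 10 kb, and 69 had the reverse. Those with the most new peaks were Snx29, a sorting nexin gene, with 15, and Igf1r with 12. Control females had 10 peaks at Snx29 and 7 at Igf1r, E1/E2-KO females 11 and 6. The next were 3010026O09Rik with 9 peaks and Ebf3, Nfatc2, Gramd1b, Pax8, Prkcb, Tox2 and Fads3 with 8 each. Tox2, an HMG-box gene, differed by genotype in females too, with 1 peak in control females, 5 in E1/E2-KO females and 4 of its 8 gained peaks gained in both sexes. Ebf3, a transcription factor of neural and muscle lineages, had 3 and 8 in females. At 3010026O09Rik the order turned, with 9 in control and 2 in E1/E2-KO females. Igf1r, Ebf3, Nfatc2, Pax8 and Tox2 were covered by H3K27me3 over 100% of the gene in both genotypes, while Snx29 had none. The remaining genes, with 6 or 7 peaks, were Hs6st1, Ptpn13, Lpar3, Myo7b and Gm7325.

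**Figure D5:**
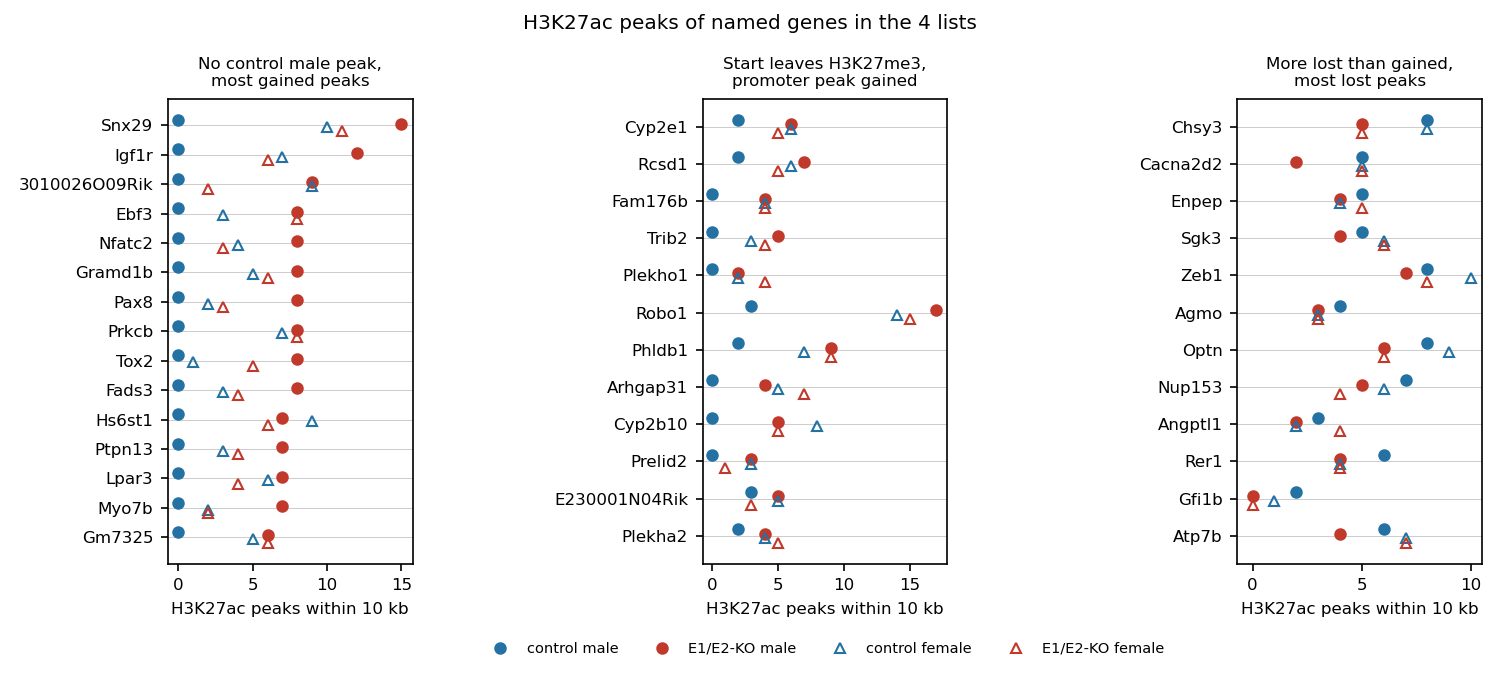
Number of H3K27ac peaks within 10 kb of genes with no control male peak (left), with H3K27me3 lost and a peak gained at the start (middle) and with more lost than gained peaks (right), in males (circles) and females (triangles) of the control (blue) and E1/E2-KO (red) lists. Snx29 and Igf1r have 0 peaks in control males and 15 and 12 in E1/E2-KO males, with 10 and 7 in control females.

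Some genes had a gained peak within 1 kb of their 5′ end, which lay in H3K27me3 in control but not in E1/E2-KO males. The 12 with the most gained bases nearby were Cyp2e1, Rcsd1, Fam176b, Trib2, Plekho1, Robo1, Phldb1, Arhgap31, Cyp2b10, Prelid2, E230001N04Rik and Plekha2. Cyp2e1 and E230001N04Rik already had another promoter peak in control males. Robo1, a guidance receptor, had 3 peaks in control males, 17 in E1/E2-KO males and 14 in control females. Trib2, a pseudokinase gene, had 0, 5 and 3, and Arhgap31, a GTPase-activating protein gene, 0, 4 and 5. Each of the 12 genes had a promoter peak in control females.

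Fewer genes had lost peaks. Chsy3, a chondroitin synthase gene, had the most among genes with more lost than gained peaks, with 4 lost and 1 gained, and went from 8 to 5 peaks in males and from 8 to 5 in females. Cacna2d2, a calcium channel subunit, had 5 and 2 in males but 5 and 5 in females. Atp7b, the copper transporter of hepatocytes, had 6 and 4 in males and 7 and 7 in females, while H3K27me3 covered 0% of it in control and 69.9% in E1/E2-KO males and its H3K4me1 peaks numbered 7 and 1. Gfi1b, a repressor of blood lineages, had 2 and 0 in males and 1 and 0 in females. Enpep, Sgk3, Zeb1, Agmo, Optn, Nup153, Angptl1 and Rer1 each had 3 lost peaks.

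The widest gained peak, 1884 bp, lay over a start of Rims2 at chr15:39028781-39030664, followed by peaks nearest to Sh3bp4 (1806 bp), Pvrl3 (1769 bp), Ergic1 (1747 bp), Rbm17 (1743 bp) and Igf2bp2 (1711 bp). All 6 were also in the control female list. The widest lost peaks were nearest to Coil (1477 bp), Cyp2c67 (1059 bp), Sun2 (908 bp), Cept1 (876 bp), Tns1 (812 bp) and Cpne4 (809 bp). The lost peak near Cyp2c67, at chr19:39750390-39751448, was in no other H3K27ac list and met H3K4me1 in control but not in E1/E2-KO males. Of the peaks gained in both sexes, the widest were nearest to Hoxc4 (1672 bp), Tmem20 (1661 bp), Dcdc2a (1480 bp), Commd3 (1413 bp), Lep (1357 bp) and Bhlhe22 (1352 bp).

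Base composition separated the classes mainly through promoters. The 300-base windows at peak centres had a median GC content of 52.0% in kept, 49.0% in gained and 46.7% in lost peaks, and at least 5 CpG per 100 bases were found in 29.3, 6.53 and 1.93%. Among promoter peaks the CpG-rich share was 58.6% for kept, 39.0% for gained, 46.7% for those gained in both sexes and 15.1% for lost peaks, against 50.9% of windows at all gene starts. Outside promoters it was 4.50, 2.14 and 0.554% for kept, gained and lost peaks. The windows printed above for Tcfap2a, Igf2bp3, Zic4 and Igf1r belong to the CpG-rich promoter group.

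Short motifs of liver transcription factors were about as frequent in gained as in kept peaks outside promoters. On both strands, the STAT motif TTCNNNGAA was found in 9.11% of gained, 8.89% of kept and 10.1% of lost windows. The FOXA motif TGTTTAC was found in 4.57, 4.48 and 4.74%, and the HNF4 motif CAAAGTCCA in 0.752, 0.729 and 0.554%. The C/EBP motif TTNNGCAA was found in 11.7, 11.7 and 12.3%, the AP-1 motif TGANTCA in 9.31, 8.78 and 10.9%, and the interferon response motif GAAANNGAA in 9.40, 10.1 and 10.2%. Motifs were matched letter by letter and may overlap, and a match describes the window only.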

How the data were processed

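Chromatin from frozen livers was immunoprecipitated and sequenced as 50 nt paired-end reads. Per the labels and the methods of the study, the authors mapped reads to mm9 with Bowtie2 2.3.2, pooled the livers of a group, and called H3K27ac and H3K4me1 peaks with MACS2 2.1.1 and H3K27me3 regions with SICER 1.1. The deposited values are other than counts or scores: positions only, with no per-sample column, so that per-sample columns left unused numbered 0. Depth per sample is unknown.

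Autosomal peaks were compared at 1 bp overlap in Python 3.11.15 with numpy 2.4.6, after 1 base was added to the ends of SICER regions. Genes came from the GENCODE annotation of NCBIM37 (21281 protein-coding genes, 46006 starts), and sequences from the NCBIM37 genome (samtools 1.23.1, pysam 0.24.0). A promoter lay within 1 kb of a start and a gene's peaks within 10 kb of its span. The overlap code was tested on simulated data. Groups followed the labels. Members and gene lists were chosen with earlier results of these data known. Named genes were the 15 with the most gained peaks and no control peak, 12 with a gained peak and loss of H3K27me3 at the 5′ end, 12 with more lost than gained peaks, the 6 widest gained and lost peaks, up to 4 members per gene list by change in peak number, and the 5 largest clusters. Other members, Lep, loci, and peaks gained in both sexes were named after their values were seen. Alternatives were another overlap, merging, widths, flanks and equal numbers of widest peaks, the last for genes and the split by sex being added after seeing the data. Some genes are not reported here. Gene list members without a match in the annotation were left out of the counts.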

Additional observations from a re-analysis of the deposited data

How the results depend on the processing

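No paired analysis was possible because each group has 1 peak list called on pooled livers, and for the same reason no replicate could be left out. Requiring at least 50% of a peak to be covered gave 13.3% lost and 61.7% gained peaks, 42.1% of gained peaks in the control female list, and overlap with H3K4me1 of control liver for 42.8% of kept, 35.8% of lost and 43.9% of gained peaks and of E1/E2-KO liver for 36.9, 29.1 and 42.9%. Merging peaks within 1 kb gave 49.3% gained. Equal numbers of the widest peaks gave 24.6% lost and 29.5% gained, and a gained or control female peak at 23.6% of genes each. Promoters widened to 3 kb held 50.1% of kept, 15.7% of lost and 17.8% of gained peaks. Among peaks of at least 500 bp, promoters held 63.0% of kept and 16.6% of gained, and H3K4me1 overlap was 67.1% (kept), 63.9% (lost) and 71.2% (gained) for control and 49.3% (lost) and 69.5% (gained) for E1/E2-KO. A gap of 5 kb left 95 clusters of 5 or more gained peaks. Genes with a gained peak made up 71.4% within 50 kb, 32.2% within the span, 32.9% against both controls and 13.8% in both sexes. The cause of these shifts was not tested. For single gene lists, 71 alternative values lay outside the 95% interval of the main value and 43 inside it. These intervals are wide for short lists. Values inside them include large falls, such as from 90% to 60% of growth hormone signalling genes when only the span was counted. Without depth or peak heights, narrow peaks near the calling limit cannot be told from absent ones.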
